A study of Mus musculus with 12 samples.

Results

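Metallothioneins and the genes that set zinc levels around them were followed in embryonic mouse kidneys: Mt1, Mt2, Mt3, Mtf1 and Slc30a1. The 5 genes were chosen by their ratios of null over WT, by replicate number and dye orientation, in these same arrays, so their values are a description and carry no test. They were read from every non-control probe whose accession maps to one of the 5 symbols, which gave 8 of the 41174 probes of the array. Of these 8 probes, 6 entered the table of 22979 probes bright enough to be tested, and each of the 5 genes kept at least 1 probe. Bright enough means a signal clearly over background for 1 of the genotypes on 6 or more of the 12 arrays.

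Kidneys were taken at embryonic day 14.5 from progeny of Bdkrb2 heterozygous parents on a C57BL/6 background, and all mothers were fed 5% sodium, so null and WT embryos share the gestational salt load. Bdkrb2 encodes the bradykinin B2 receptor, and the null embryos lack it. Total RNA of the 2 genotypes was co-hybridised on 12 two-colour Agilent arrays, with null RNA in Cy5 and WT RNA in Cy3 (null/WT) or with the dyes exchanged (WT/null). Each orientation had 3 replicate numbers, each number was run on a slide of its own, and each replicate was put on 2 arrays, which were averaged to give 6 values per probe. Whether a sample was 1 embryo or a pool, and whether both orientations of a number used the same RNA extracts, is not given in the labels. P-values therefore measure only the spread between these samples, and if extracts were shared, 3 samples of each genotype were independent. All differences are log2 ratios of null over WT, where 1 is a doubling and a negative value means less RNA in the null kidney.

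Metallothioneins are small cysteine-rich proteins that bind zinc and copper and buffer the free zinc of the cell. When free zinc rises, the zinc-finger transcription factor MTF1, encoded by Mtf1, binds metal response elements in the promoters of Mt1, Mt2 and Slc30a1 and raises their transcription, and glucocorticoids and cell stress also raise Mt1 and Mt2. Slc30a1 encodes ZnT1, which exports zinc across the plasma membrane. Mt3 is the brain-enriched metallothionein, and Mt1 and Mt2 are made in most tissues, including the kidney tubule.

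The promoters of the 3 genes with metal response elements in textbook accounts are shown because Mt1 and Mt2 moved in step and Slc30a1 in part with them. Each sequence runs 5′ to 3′ on the plus strand from 250 bases before to 30 bases after the annotated start, taken from RefSeq on GRCm38.p6, at chr8:94178839-94179118 for Mt1, chr8:94172368-94172647 for Mt2 and chr1:191906531-191906810 for Slc30a1. Capitals mark the core of the metal response element, searched as TGCACNC or TGCGCNC on both strands.
Mt1: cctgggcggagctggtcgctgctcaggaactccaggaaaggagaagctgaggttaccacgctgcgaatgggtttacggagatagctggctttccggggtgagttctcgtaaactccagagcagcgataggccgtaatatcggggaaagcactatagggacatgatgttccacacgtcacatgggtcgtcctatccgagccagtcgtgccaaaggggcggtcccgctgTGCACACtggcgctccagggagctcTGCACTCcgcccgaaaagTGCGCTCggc
Mt2: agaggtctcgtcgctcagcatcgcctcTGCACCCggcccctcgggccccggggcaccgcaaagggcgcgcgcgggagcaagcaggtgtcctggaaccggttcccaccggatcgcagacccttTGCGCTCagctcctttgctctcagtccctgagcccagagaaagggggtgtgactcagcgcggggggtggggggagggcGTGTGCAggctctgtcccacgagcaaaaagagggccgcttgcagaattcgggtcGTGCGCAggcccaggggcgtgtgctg
Slc30a1: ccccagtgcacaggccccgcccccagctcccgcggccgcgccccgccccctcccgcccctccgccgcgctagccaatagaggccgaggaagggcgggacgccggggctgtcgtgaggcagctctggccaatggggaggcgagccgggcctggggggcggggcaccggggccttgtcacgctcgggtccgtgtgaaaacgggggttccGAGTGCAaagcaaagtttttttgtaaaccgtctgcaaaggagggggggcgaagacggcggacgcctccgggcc

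Of 27025 promoters of the same 280 bases, 6477 (24.0%) held at least 1 core. The Mt2 promoter held 4, on both strands, a number reached by 104 promoters (0.385%). The Mt1 window held 3, all on the plus strand and near its downstream end, a number reached by 474 promoters (1.75%). The Slc30a1 promoter held 1, on the minus strand. These counts depend on the annotated start, and cores beyond the end of a window were not searched. No core was found in these windows of Mt3 or Mtf1. A match is a run of letters and not a measured binding site.

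Array quality and the deleted gene bear on every value. Between 41.2% and 60.0% of spots were well above background per channel, and duplicate arrays correlated at 0.711 to 0.923 across probes. The first array of WT/null replicate 3 stood apart, with an SD of 0.38 of its log2 ratios against 0.16 to 0.26 on the others. The Bdkrb2 probe was clearly over background on 0 of 12 arrays for null RNA and on 1 of 12 for WT RNA, which leaves the genotypes unchecked. Of the 22979 tested probes, 9 (0.0392%) passed an adjusted p of 0.05 by limma, 5 higher and 4 lower in null kidneys. None of the 6 probes of the 5 genes was among them, which is no test of genes chosen by these ratios. This fit treats the 6 replicates as independent. With the replicate number as a block, as 3 paired dye-swap means, 4 probes passed, with a block of fixed terms 295, and without number 3, 62.

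Mt1 went one way in replicate numbers 1 and 2 and the other way in number 3. Its log2 ratio was -0.08 and -0.46 in null/WT and WT/null replicate 1, -0.10 and -0.50 in null/WT and WT/null replicate 2, and 1.36 and 1.05 in null/WT and WT/null replicate 3. The null kidneys thus had less Mt1 RNA in 4 of 6 replicates and more in both replicates of number 3. Of all tested probes, 0.936% had these signs in all 6 replicates. By replicate number, Mt1 was 1.20-fold and 1.23-fold lower in null kidneys on numbers 1 and 2 (log2 -0.27 and -0.30) and 2.31-fold higher on number 3 (log2 1.21), although on number 1 the sign turned when arrays were centred on their median in place of loess. That centring moved the median of all tested probes on number 1 by 0.32, to 0.33, and relative to this median Mt1 stood at -0.17. The mean over the 6 replicates was 0.21 ± 0.80 (SD), smaller than its spread, and without number 3 it was -0.29 ± 0.23 (SD, n = 4). Most of this last SD lies between the dye orientations, since numbers 1 and 2 had means of -0.27 and -0.30.

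Mt2, the other widely expressed metallothionein, repeated the Mt1 values. Its log2 ratio was -0.19 and -0.56 in null/WT and WT/null replicate 1, -0.26 and -0.51 in replicate 2, and 1.51 and 1.26 in replicate 3, in the same order of orientations. The 4 replicates of numbers 1 and 2 were again below 0 and the pair of number 3 above it. The null kidneys had 1.29-fold and 1.31-fold less Mt2 RNA on numbers 1 and 2 (log2 -0.37 and -0.38) and 2.61-fold more on number 3 (log2 1.38), and here too the value of number 1 turned its sign under median centring, where it stood at -0.23 relative to the median of all probes. The mean of 0.21 ± 0.92 (SD, n = 6) became -0.38 ± 0.18 (SD, n = 4) without number 3, where again most of the SD lies between the dye orientations. Across the 6 replicates the Mt2 ratio differed from the Mt1 ratio by between -0.15 and 0.20. Mt1 and Mt2 have similar coding sequences, and whether either probe also binds the other transcript was not tested.

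**Figure D1:**
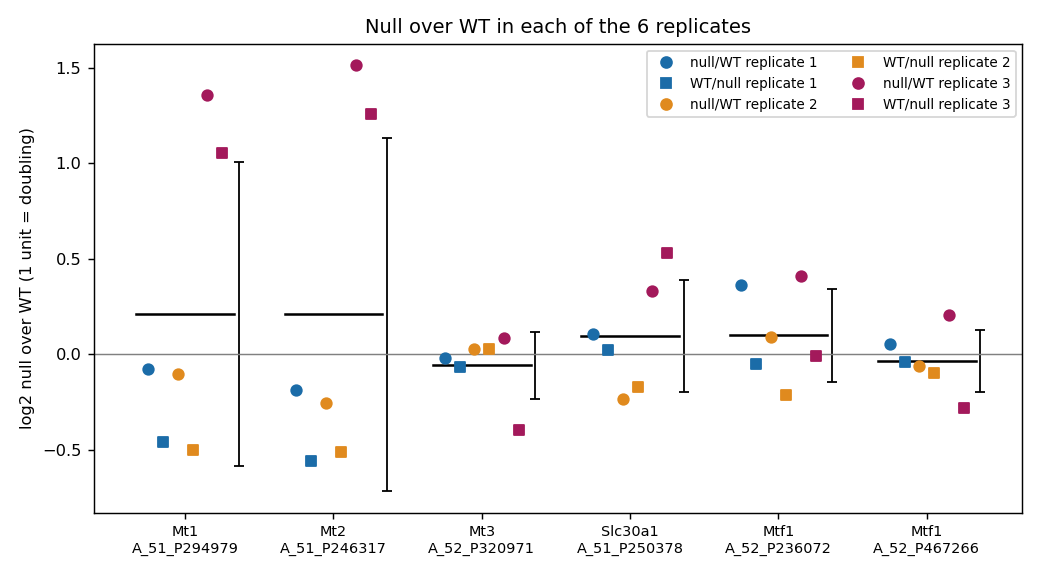
Log2 ratio of null over WT (y axis) of the 6 tested probes in the 6 replicates, with colour for the replicate number, circles for null/WT and squares for WT/null, a line at the mean and a bar of 1 SD (n = 6). Mt1 and Mt2 lie below 0 in the 4 replicates of numbers 1 and 2 (number 1 changes sign under median centring) and above 1 in both of number 3, while the probes of Mt3, Slc30a1 and Mtf1 lie between -0.40 and 0.53.

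The Mt1 value rests on 10 spots of 1 probe on each array. Of the 120 spots, 0 were outliers and 0 were saturated. On the 8 arrays of numbers 1 and 2, 77 of 80 spots were below 0, and on number 3 all 40 of 40 were above 0. The SD over the spots of an array was 0.0242 to 0.142. Duplicate arrays gave means of 1.04 and 1.07 in WT/null replicate 3 and of 1.39 and 1.33 in null/WT replicate 3. Leaving out the first array of WT/null replicate 3, which stood apart, gave number 3 means of 1.21 for Mt1 and 1.39 for Mt2.

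**Figure D2:**
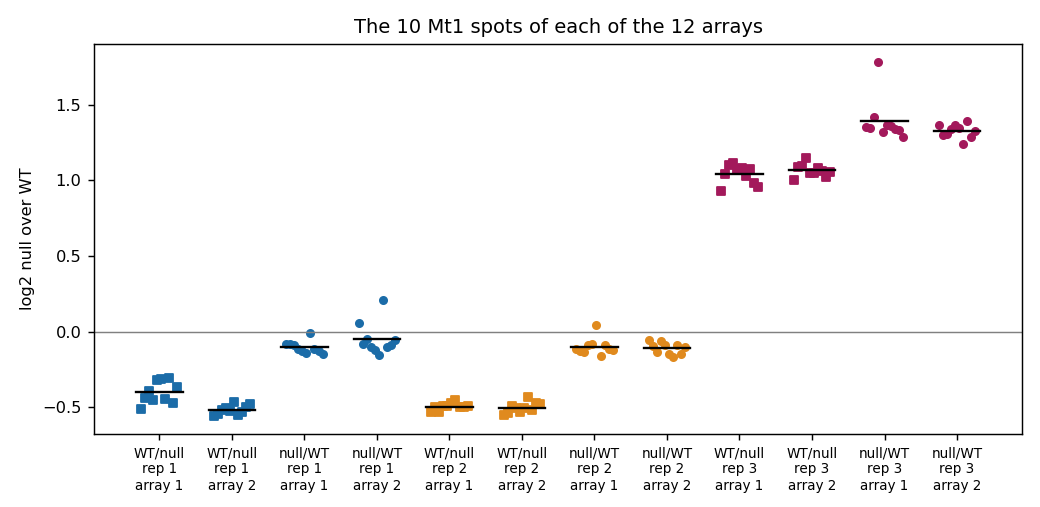
Log2 ratio of null over WT (y axis) of the 10 Mt1 spots on each of the 12 arrays (x axis), coloured by replicate number, with circles for null/WT and squares for WT/null, and a line at the mean of each array. Every spot of number 3 lies above 0 and 77 of 80 spots of the other arrays below it, and the WT/null arrays of each number sit lower than its null/WT arrays.

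The dye orientation moved Mt1 and Mt2 as well. Null/WT replicates exceeded WT/null replicates in Mt1 by 0.38, 0.40 and 0.31 on numbers 1, 2 and 3, and in Mt2 by 0.37, 0.26 and 0.26. On each number a single orientation of Mt1 thus lay 0.19, 0.20 and 0.15 from the mean of both, below the size of the genotype values of -0.27, -0.30 and 1.21.

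The channel levels show which genotype moved between replicate numbers, where slide and sample change together. These are normalized log2 intensities of each genotype's own channel, averaged over the 4 arrays of a number, and they can be compared between slides only as far as that normalization holds. In null kidneys the Mt1 level was 10.14, 10.98 and 11.45 on numbers 1, 2 and 3, and in WT kidneys it was 10.41, 11.28 and 10.25. The null sample of number 3 had the highest level, the WT sample of number 3 was at the level of the number 1 samples, and on number 2 both genotypes were high. On each number the lowest array of the higher genotype was above the highest array of the lower one. The margins were narrow on number 1, where null arrays reached 10.25 and WT arrays began at 10.29. They were also narrow on number 2, where null arrays reached 11.10 and WT arrays began at 11.13. The arrays include duplicates of a replicate, and the share of all probes that separate in this way is not given here.

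Mt2 levels followed the same order, 12.03, 12.67 and 13.39 in null kidneys on numbers 1, 2 and 3. In WT kidneys they were 12.41 and 13.05 on numbers 1 and 2, and the 4 arrays of number 3 read 11.89 to 12.11. Within a genotype the level differed between slides by 1.31 in null and 1.04 in WT kidneys for Mt1, and by 1.36 and 1.05 for Mt2. Over all tested probes the median of this spread was 0.222 in null and 0.230 in WT kidneys, and the 95th percentile was 0.597 and 0.692. Both metallothioneins varied between samples of 1 genotype about as much as between genotypes on number 3. In whole kidney RNA, a change in the share of cells that make a transcript and a change in RNA per cell cannot be told apart.

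**Figure D3:**
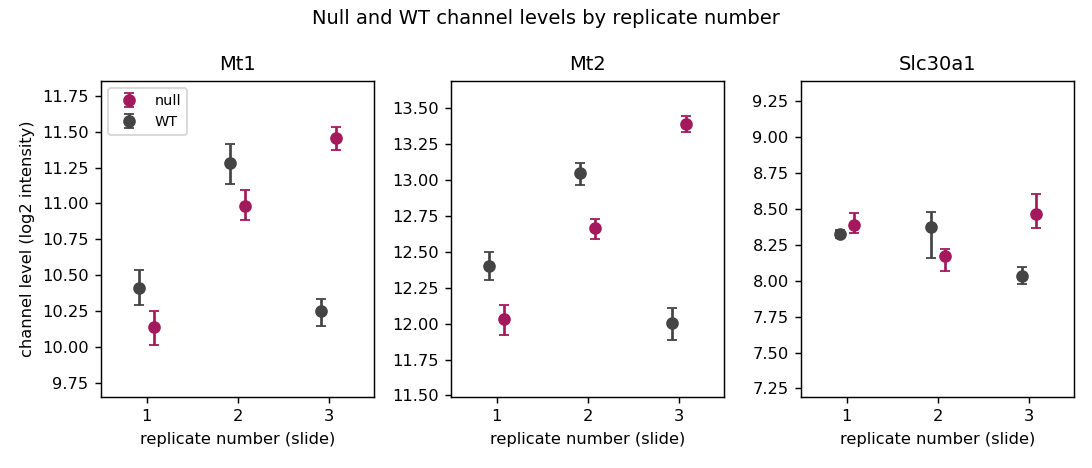
Normalized log2 intensity of the null (purple) and WT (grey) channel (y axis; each panel has its own range of equal height) of Mt1, Mt2 and Slc30a1 on replicate numbers 1, 2 and 3 (x axis); points are means of 4 arrays and bars run from the lowest to the highest array. The Mt1 and Mt2 levels are high in both genotypes on number 2 and in null kidneys alone on number 3, and Slc30a1 levels stay between 8.03 and 8.46.

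Slc30a1, the zinc exporter, was also highest on number 3. Its log2 ratio was 0.11 and 0.02 in null/WT and WT/null replicate 1, -0.24 and -0.17 in replicate 2, and 0.33 and 0.53 in replicate 3. The pair of number 3 was the highest and the pair of number 2 the lowest, an order whose share among all probes is not given here. By number this was 1.04-fold higher, 1.15-fold lower and 1.35-fold higher in null kidneys (log2 0.06, -0.20 and 0.43). With median centring the values were 0.38, -0.26 and 0.62, and relative to the median of all probes they were 0.05, -0.19 and 0.44. Leaving out the first array of WT/null replicate 3 gave 0.40 for number 3.

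The mean of Slc30a1 over the 6 replicates was 0.10 ± 0.29 (SD) and became -0.07 without number 3. On number 3 the null level was 8.46 and the WT level 8.03, and the arrays of the genotypes did not overlap. The share of all probes whose arrays separate in this way on number 3 is not given here. On numbers 1 and 2 the arrays of both genotypes overlapped. Another Slc30a1 probe was clearly over background for each genotype on 4 of 12 arrays and was not tested.

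Mtf1, the zinc sensor itself, had 2 tested probes, and neither had the signs of Mt1. The brighter one (A_52_P236072) read 0.36 and -0.05 in null/WT and WT/null replicate 1, 0.09 and -0.21 in replicate 2, and 0.41 and -0.01 in replicate 3. These values split by dye and not by replicate number, with all 3 null/WT replicates above all 3 WT/null replicates (means 0.29 and -0.09). Other genes, among them Sod1 and Six2, split by dye as well, and the share of all probes that do so is not given here. The other tested Mtf1 probe (A_52_P467266) read 0.05 and -0.04, -0.06 and -0.10, and 0.21 and -0.28 in the same order. The probe means were 0.10 ± 0.24 and -0.04 ± 0.16 (SD, n = 6), of opposite sign and each smaller than its SD. The remaining Mtf1 probe was over background on 0 of 12 arrays for either genotype.

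Mt3 was dim, over background on 10 of 12 arrays for null and 11 of 12 for WT RNA. Its log2 ratio was -0.02 and -0.07 in null/WT and WT/null replicate 1, 0.03 and 0.03 in replicate 2, and 0.09 and -0.40 in replicate 3. All values but that of WT/null replicate 3 lay within 0.1 of 0, and number 3 was neither high nor low as a pair. The mean was -0.06 ± 0.17 (SD, n = 6). On number 3 it was over background on 2 of 4 arrays for null and 3 of 4 for WT RNA, so its values there are the least firm. Mt4, the metallothionein of squamous epithelium and no member of the group studied, was over background with its brighter probe on 7 of 12 arrays for null and 5 of 12 for WT RNA, at -0.01 ± 0.21 (SD, n = 6).

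Set among all probes, Mt2 and Mt1 stood near the ends on every slide. On number 3 Mt2 had the 30th and Mt1 the 39th highest ratio of 22979 probes. On number 1 they had the 100th and 172nd lowest ratio, and on number 2 the 66th and 106th lowest. Slc30a1 was the 358th highest on number 3 and the 270th lowest on number 2.

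Of the 22979 tested probes, 215 (0.936%) were lower in null kidneys in all 4 replicates of numbers 1 and 2 and higher in both of number 3, and 59 (0.257%) had a number 3 mean above 1. Both counts include Mt1 and Mt2 and no other of the 5 genes, a choice made with these values known. Only 7 probes met both conditions, and they belong to Mt1, Mt2, Aadat, Klk1b24, Napsa, Sucnr1 and Tmem174; the last 5 were named after their values were seen. Napsa encodes an aspartic protease of kidney and lung, Klk1b24 is a kallikrein-related gene, and Sucnr1 encodes the succinate receptor.

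**Figure D4:**
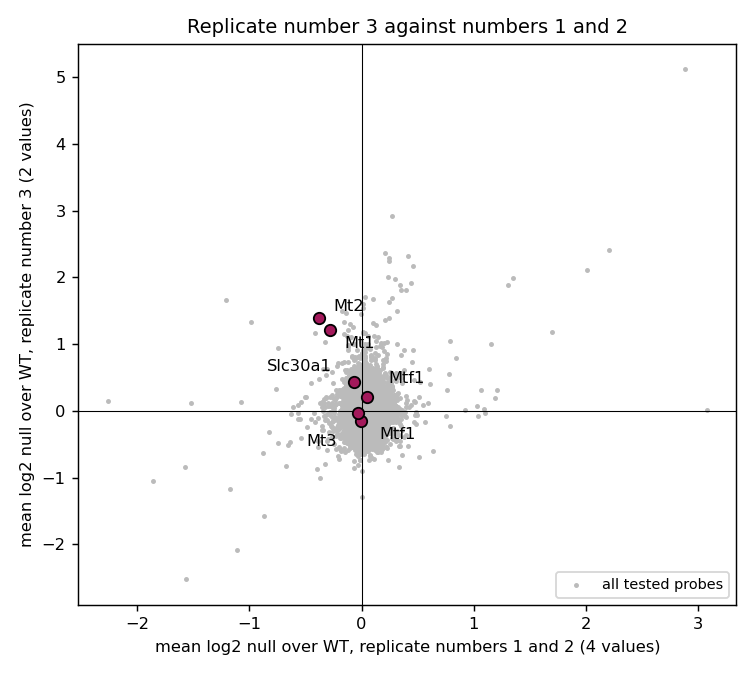
Mean log2 ratio of null over WT on replicate number 3 (y axis, 2 values) against the mean on numbers 1 and 2 (x axis, 4 values) for the 22979 tested probes (grey) and the 6 tested probes of the 5 genes (purple). Mt1 and Mt2 lie in the upper left, high on number 3 and below 0 on the other slides. Slc30a1 lies in the upper part of the cloud, with 357 probes higher on number 3, and Mt3 and both Mtf1 probes lie within the cloud.

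The genes whose 6 ratios lay closest to those of Mt1 were ranked by the root mean square difference over the 6 replicates, among 12642 other genes. They were Slc34a1 (0.179), Sucnr1 (0.191), Plscr2 (0.193), Ly6a (0.237) and Aadat (0.241), and Mt2 itself was closer than any of them (0.135). For Mt2 the order was Sucnr1 (0.225), Aadat (0.233), Slc34a1 (0.243), Tmem174 (0.295) and Plscr2 (0.317). Slc34a1 encodes the sodium-phosphate cotransporter of the proximal tubule brush border, and Aadat an enzyme of tryptophan breakdown. Slc34a1 read -0.05 and -0.29 in null/WT and WT/null replicate 1, 0.12 and -0.19 in replicate 2, and 1.47 and 1.12 in replicate 3. The 6 genes of both rankings read 0.95 to 1.46 on number 3, and all were closer to 0 than Mt1 on number 2, where Mt1 stood at -0.30 and Slc34a1 at -0.04, Aadat at -0.06 and Sucnr1 at -0.23.

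Markers of kidney cell types and of neighbouring tissues were read beside the metallothioneins. Of 12 proximal tubule markers, 11 were tested, and their median log2 ratio was -0.07, 0.06 and 0.77 on numbers 1, 2 and 3, with all 11 above 0 on number 3 and 4 above 1, among them Slc34a1 and Fbp1 (2.25), an enzyme of gluconeogenesis. Their mean level was 8.46, 9.70 and 9.59 in null and 8.52, 9.57 and 8.75 in WT kidneys, high in both genotypes on number 2 and in null kidneys alone on number 3, as for Mt1 and Mt2. Of the 11 genes, Slc5a2, a glucose transporter, was below 0 in all 4 replicates of numbers 1 and 2 and above 0 in both of number 3. The part of proximal tubule cells in the metallothionein values was not tested.

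Skeletal muscle markers had median ratios of 0.14, 0.41 and 1.12 (9 of 11 tested) and mean levels of 7.56 and 7.99 in null kidneys on numbers 1 and 2, 9.0 on number 3, and 7.46 to 7.62 in WT kidneys. Liver, where metallothioneins are abundant before birth, had medians of 0.01, 0.05 and 0.26 (5 of 11 tested), with Afp at 1.45 and Alb at 0.28 on number 3. Its markers Apoa1, Apoa2, Fga and Ttr were not well above background in any channel, and its mean levels ran from 8.03 to 8.57 in null and from 8.02 to 8.45 in WT kidneys. Erythroid markers had medians of -0.21, -0.04 and 0.15 (7 of 10 tested), with mean levels of 10.77 to 11.18 in null and 10.93 to 11.18 in WT kidneys. Of the 7 erythroid genes 0 were above 0 on number 1 and 6 on number 3, and Alas2 and Slc4a1 had the signs of Mt1 in all 6 replicates. Adrenal and chromaffin markers had medians of 0.11, 0.01 and -0.01 (4 of 10 tested), and Cyp21a1, Dbh and Th were not well above background in any channel; levels ran from 7.99 to 8.11 in null and from 7.90 to 7.99 in WT kidneys. Kidney progenitor and patterning genes had medians of -0.01, 0.01 and -0.12 (11 of 12 tested), with levels of 9.84 to 10.02 in null and 9.85 to 10.02 in WT kidneys. Of this list Ret, too, was not well above background in any channel. The part of these cells in the metallothionein values was not tested.

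By sex-linked genes the null samples read as female on every replicate number, and the WT samples as female on number 1 and male on numbers 2 and 3. Xist RNA, made in female cells, was over background in all 4 null channels of each number, in all 4 WT channels of number 1, and in 0 of 4 WT channels on numbers 2 and 3. The Y-linked Ddx3y, Eif2s3y and Kdm5d gave signal over background in all 4 WT channels of numbers 2 and 3, and in 0 channels of either genotype otherwise. On numbers 2 and 3 null over WT was thus also female over male, and genotype and sex cannot be told apart there. These ratios also enter the limma fit. The part of sex in the Mt1 and Mt2 values was not tested.

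**Figure D5:**
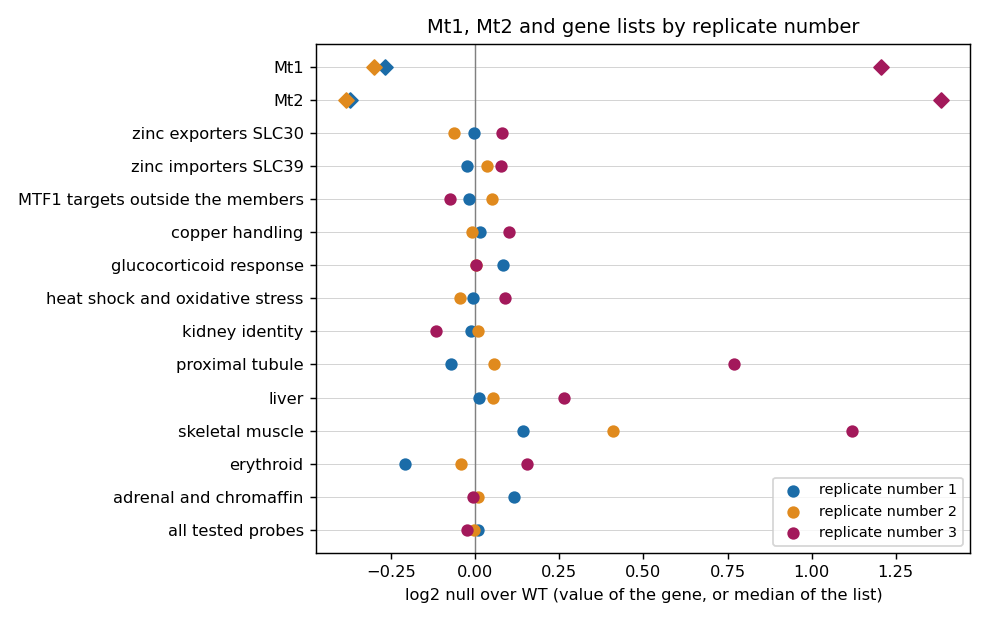
Log2 ratio of null over WT (x axis) of Mt1 and Mt2 (diamonds) and medians of gene lists (circles) on replicate numbers 1, 2 and 3. On number 3 the proximal tubule and skeletal muscle lists lie at 0.77 and 1.12, and the zinc, copper, glucocorticoid and stress lists lie between -0.07 and 0.10; the Mt1 and Mt2 values of number 1 change sign under median centring.

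The other genes of zinc handling had medians near 0 on all slides. Of 9 other SLC30 zinc exporters 6 were tested, 2 above and 4 below 0, with a median of -0.01, and by number -0.00278, -0.06 and 0.08. The SLC39 family carries zinc into the cytosol, and of its 14 listed genes 12 were tested, 9 above and 3 below 0, with a median of 0.03 and by number -0.03, 0.03 and 0.08. Slc39a1, the plasma membrane importer ZIP1, had the smallest p of the family at 0.14 ± 0.04 (SE) (adjusted p = 0.588 by limma). Slc39a4, the importer ZIP4, read -0.08, 0.04 and 0.45 on numbers 1, 2 and 3, a mean of 0.14 ± 0.09 (SE) (adjusted p = 0.729 by limma). The exporter Slc30a7, ZnT7 of the Golgi, was at 0.07 ± 0.05 (SE). The listed MTF1 targets outside the 5 genes were all 6 tested, 2 above and 4 below 0, with a median of -0.03. This list counts the dim Mt4, at -0.01, as 1 of the 4 below 0. Among them Ndrg1, a stress-responsive gene, was at 0.14 ± 0.05 (SE) and read 0.29 on number 3, where 4 of the 6 were below 0, with the growth factor gene Pgf at -0.32 and Csrp1 at -0.31.

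Copper, glucocorticoid and stress genes were read because they meet the same promoters or the same metals. Of 13 copper handling genes 11 were tested, 10 above and 1 below 0, with a median of 0.02; Atp7a, the copper exporter, was at 0.12 ± 0.04 (SE). Of 12 genes of the glucocorticoid response 11 were tested, 6 above and 5 below 0, with a median of 0.01. Nr3c1, the glucocorticoid receptor, was at 0.17 ± 0.06 (SE) with its brightest probe, and 1 of its 4 tested probes had the opposite sign. On number 3, 6 of the 11 genes were above 0, from Fkbp5 at -0.46 (1 of 3 tested probes of opposite sign) to Nr3c1 at 0.36. Of 12 heat shock and oxidative stress genes 11 were tested, 7 above and 4 below 0, with a median of 0.02. Hspa8, a constitutive chaperone, had the smallest adjusted p of all these lists, at -0.21 ± 0.06 (SE) (adjusted p = 0.559 by limma), and Hmox1, the haem oxygenase raised by metals, was at 0.07 ± 0.04 (SE).

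Over the 6 lists, 57 genes were tested, and 0 passed the threshold in either direction by limma, beside 0.0392% of all probes; 5 had an unadjusted p under 0.05, where 7.01% of all probes did. Of the 57 genes 36 were above 0, against 44.1% of all probes, and the median was 0.02 against -0.01. None of the 57 had the signs of Mt1 in all 6 replicates, beside 0.936% of all probes.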

How the data were processed

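Spot and background median intensity of each dye was deposited without normalization, per the file headers. The scanner software's log10 ratio of Cy5 over Cy3 in the same files came, per the file headers, from version 10.5.1.1 of Agilent Feature Extraction, while the submitters' processing notes name version 6.1. A deposited series table held log10 ratios which, set against the scanner ratios turned to null over WT, correlated at 0.998 to 0.999 with slopes of 1.00, so scale and direction are known. Why some of its entries are blank is unknown. Its column medians were 0.00645, 0.000114, 0.00146, -0.00174, -0.00315 and -0.00332 for null/WT arrays and -0.000769, -0.000946, -0.00257, -0.00440, -0.01 and -0.0218 for WT/null arrays.

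Background was corrected by normexp (offset 50), ratios were normalized by loess within arrays, control and outlier spots were left out, and spots of a probe and duplicate arrays were averaged. Channel levels were made comparable by Aquantile. Symbols came from RefSeq accessions (25097 of 41174 probes). The fit used limma (version 3.58.1, R 4.3.3; lmFit, eBayes) with a dye term, and p-values were Benjamini-Hochberg adjusted over 22979 probes. The script was tested on simulated data. The number of arrays limits the precision, with a median standard error of 0.0506.

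Members and gene lists were chosen with earlier results of these data known. Named genes are the 5 members, up to 4 genes per list with the smallest p (a selection is described) and the 5 genes closest to Mt1 and to Mt2. A list gene counts by its brightest tested probe. Same-numbered samples share a slide and may share RNA extracts, which cannot be told apart, and their deviations correlated at 0.587, 0.517 and 0.413. Alternatives were other background correction, signals, normalization, scaling and filters, a replicate block, and leaving out each replicate, number or doubted array.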

Additional observations from a re-analysis of the deposited data

Results flagged for a closer look

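The 6 ratios of Mt3 held 1 value far from the others: WT/null replicate 3 stood at -0.40 log2 null over WT, while the other 5 lay between -0.07 and 0.09. Its gap to the nearest value, as a share of the whole range, was above the 95% limit of Dixon's test for 6 values. Of the 6 tested probes this was the only one past that limit, which chance exceeds in about 5% of single groups. The limit serves here only to mark a value, because these ratios were used to choose the genes. This replicate holds the array with the widest ratios, and without that array its value was -0.26.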

How the results depend on the processing

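Of 159 recomputed values of the 5 genes, 148 moved by less than 1 SD between replicates and 11 by more, 5 of them values of Slc30a1 by number, which kept their signs. For 6-replicate means this SD holds the difference of number 3 itself (0.80 for Mt1 and 0.92 for Mt2). The Mt1 mean thus turned from 0.21 to -0.29 without number 3 and still moved by less than 1 SD. For values by number the SD is that of the 2 dye orientations. The count therefore says little about how firm the values are. Leaving out an array of number 3 could not change the values of numbers 1 and 2. Counting these, 40 of 42 recomputed replicate-number values of Mt1 and Mt2 kept their sign. The exceptions were number 1 under median centring, 0.16 for Mt1 and 0.10 for Mt2, where the median of all tested probes moved by 0.32. The same centring gave 1.44 and 1.65 for Mt1 and Mt2 on number 3, where the median of all tested probes moved by 0.21, and scaling between arrays gave 0.89 and 1.01. Over the alternatives the 6-replicate mean ran from -0.29 to 0.47 for Mt1 and from -0.38 to 0.51 for Mt2, with the lowest values without number 3. The count of probes past the threshold, 9 in the design as described, was 17 with scaling, 15 when the array that stood apart (WT/null replicate 3, first array) was left out, and 3 to 62 when a replicate or number was left out (5 without null/WT replicate 2, 3 without number 2, 62 without number 3). With the replicate number as a block, as 3 paired dye-swap means, 4 probes passed. A block with fixed terms, added after seeing the data, let 295 pass because only the spread within a number enters it. The count of 0 list genes was kept in every alternative run. Probes near background, as for Mt3, limit what can be read. Under all of the alternatives number 3 is 1 slide, and slide and sample cannot be told apart.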
